A study of Saccharomyces cerevisiae with 7 samples.

Results

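The genes described here belong to the ergosterol synthesis pathway of budding yeast, Saccharomyces cerevisiae. They are the genes whose standard name is NCP1 or ERG followed by a digit, and 5 of the 337 genes in the table of readthrough indices met this rule. These were ERG10, ERG1, ERG11, NCP1 and ERG25. The rule used only names and no measured value. The measurement was GRO-seq, in which polymerases already at work extend their transcripts in permeabilized cells and the labelled RNA is sequenced. It was compared between cells with the sua7-1 allele of the TFIIB gene (3 libraries, replicates 2, 3 and 4) and wild type (WT) cells (4 libraries, replicates 1 to 4). TFIIB is the general transcription factor that joins the promoter-bound factors to RNA polymerase II, and in sua7-1 a glutamic acid of it is replaced by lysine. All libraries came from the BY4733 background, which carries his3, trp1, leu2, met15 and ura3 deletions in both strains, and cells grew at 30 °C in YPD to an A600 of 0.8 before a 5 min run-on with BrUTP. The mutant is a single strain. The study's methods call the libraries of a strain biological replicates and give 3 per strain, whereas 4 WT libraries were analysed here, the fourth of them with few genes.

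Ergosterol is the main sterol of fungal membranes and takes the place that cholesterol has in animal cells. Its synthesis begins with acetyl-CoA, passes through mevalonate and squalene, and ends with a series of oxidations and demethylations in the endoplasmic reticulum. Several of the late steps need oxygen and heme, and some of their enzymes are the targets of antifungal drugs. Erg10 is the acetoacetyl-CoA thiolase of the first step. Erg1 is squalene epoxidase, the target of terbinafine, and Erg11 is lanosterol 14-alpha-demethylase, the cytochrome P450 hit by azoles. Ncp1 is the NADPH-cytochrome P450 reductase that passes electrons to Erg11 and Erg1, and Erg25 is the oxidase that begins the removal of the methyl groups at carbon C-4 of the sterol. The measurement says nothing of how much of these enzymes the cells made. It is the readthrough index (RTI), the ratio of run-on reads in a window downstream of the annotated mRNA 3′ end, from 50 to 500 nt, to those in the mirror window before it, so that an RTI of 0.01 means that the downstream window held 0.01 reads for each read upstream.

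All 5 members are protein-coding genes with 1 uninterrupted coding sequence in the R64 annotation. ERG25 (YGR060W) lies on the forward strand of chromosome VII from 610564 to 611493 and ERG1 (YGR175C) on the reverse strand of the same chromosome from 846933 to 848423. ERG11 (YHR007C) lies on the reverse strand of chromosome VIII from 120091 to 121683, and NCP1 (YHR042W) on its forward strand from 190543 to 192618. ERG10 (YPL028W) lies on the forward strand of chromosome XVI from 498096 to 499292. Their downstream surroundings differ. After the stop codon of ERG10 the meiotic gene SMA1 begins on the same strand at a distance of 372 nt, and after that of ERG1 the same-strand gene CBP4, for an assembly factor of the cytochrome bc1 complex, begins at 527 nt. For the other members the next gene on the same strand is farther away, at 2932 nt (DDE1) for NCP1, 3911 nt (YNCH0003C) for ERG11 and 16312 nt (ROM1) for ERG25. On the opposite strand, which the strand-specific assay keeps apart, DOG2 ends 186 nt after NCP1, YGR174W-A 191 nt after ERG1, ADE6 395 nt after ERG25, STP2 651 nt after ERG11 and SKS1 1382 nt after ERG10.

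**Figure D1:**
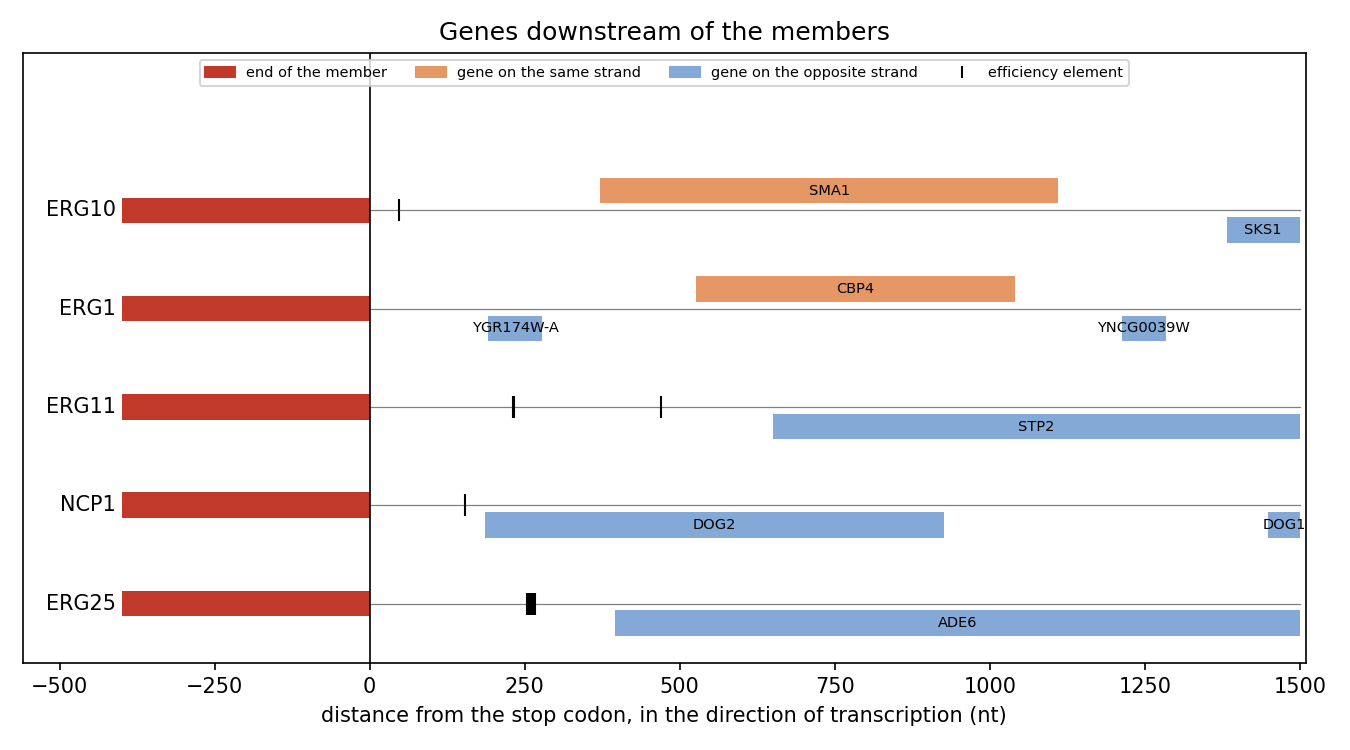
Map of the genes within 1500 nt downstream of each member, drawn by distance from the stop codon in nt in the direction of transcription, with same-strand genes above the line, opposite-strand genes below it and ticks at the TATATA matches within 500 nt. SMA1, 372 nt after ERG10, is the nearest same-strand gene of any member, and a convergent gene ends within 400 nt of ERG1, NCP1 and ERG25.

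The index turns on the stretch where transcripts are cut and polyadenylated, so short pieces of the 500 nt after the stop codon are shown. The mRNA 3′ ends were not used here, so the place of these pieces relative to the poly(A) sites is not known. In yeast, the letters TATATA (with U for T in the RNA) are the best known efficiency element of poly(A) sites and are bound by Hrp1. These letters were searched on the gene's own strand in the 500 nt after the stop codon. They were found for 4 of the 5 members, for 71.0% of 331 measured genes with a position and for 62.2% of 5988 genes of the genome. ERG1 had no match in this window. The match nearest to the stop codon of each other member is printed 5′ to 3′ on the strand of the gene, from the RefSeq copy of R64, with the motif in capitals.
ERG10, chrXVI:499327-499356, forward strand: aaaatacataaaTATATAaatggctttatg
ERG11, chrVIII:119843-119872, reverse strand: atactacgaaatTATATAtagattacattt
NCP1, chrVIII:192759-192788, forward strand: tacaattttatcTATATAttcgtgcttctg
ERG25, chrVII:611734-611763, forward strand: tatacatatccaTATATAtatatatatata
The motif began 47 nt after the stop codon in ERG10, 153 nt in NCP1, 231 nt in ERG11 and 253 nt in ERG25. In ERG25 it opened a run of alternating thymine and adenine in which the motif recurs, each match overlapping the next, and the last match began at 267 nt. Over the measured genes, the median log2 fold change of the RTI was 2.45 in the 235 genes with the motif and 2.46 in the 96 without it.

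At the other end of the gene, the sterol regulatory element TCGTATA is the site at which the activators Upc2 and Ecm22 are known to bind in promoters of this pathway. On either strand in the 500 nt before the start codon it was found in ERG1 and ERG25, in 8.16% of the 331 measured genes and in 7.00% of 6000 genes of the genome. The matches are shown with the element in capitals.
ERG1, chrVII:848788-848816, reverse strand: gtagcgggcctTCGTATAgctcggccgag
ERG25, chrVII:610070-610098, forward strand: actgcctccctTCGTATAcgggacacaga
ERG25, chrVII:610090-610118, forward strand: ggacacagagaTCGTATAcggtaaacgac
ERG25 thus held the element 2 times, beginning 483 and 463 nt before the start codon. The sequence TATAAA, the core of many TATA boxes, when searched on the gene's strand in the same window, was found in ERG10 at 128 nt and in ERG11 at 157 nt before the start codon, and in 40.4% of the genes of the genome. The median log2 fold change was 1.80 in the 27 measured genes with TCGTATA and 2.49 in the 304 without it, which is given as a description with no test.

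The RTI was listed for 314 to 337 genes per library, except in WT replicate 4, where it was listed for 38 genes, 37 of them on the forward strand by systematic name. ERG25 and NCP1 are among these 38 genes, and ERG10, ERG1 and ERG11 have no value in that library. NCP1 has none in sua7-1 replicate 3. The read numbers behind the ratios are unknown, so no counting interval can be given. The median RTI over all genes of a library ranged from 0.0414 to 0.0850 in the mutant and from 0.00349 to 0.0150 in WT (two-sided exact permutation test, p = 0.029, the lowest value that 3 against 4 libraries can give), and without WT replicate 4 the p was 0.1. The members are therefore read against a table in which most genes were higher in the mutant.

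Of the 5 members, 4 rose in the mutant and none fell, while ERG10 was not called. A gene was called where limma on log2(RTI + 0.002) gave a fold change beyond 1 on the log2 scale and a Benjamini-Hochberg adjusted p under 0.05 over all 337 genes. Among all genes 75.1% rose and 0.89% fell by this rule, so 4 of 5 is a share near the background. The members spread widely, with log2 fold changes of 0.76, 1.85, 2.82, 3.50 and 4.40 for ERG10, ERG1, ERG11, NCP1 and ERG25, against a median of 2.44 over all genes. Their own median was 2.82. For the same 4 genes the mutant and WT libraries did not overlap, with the mutant higher, a pattern found in 78.3% of all genes.

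**Figure D2:**
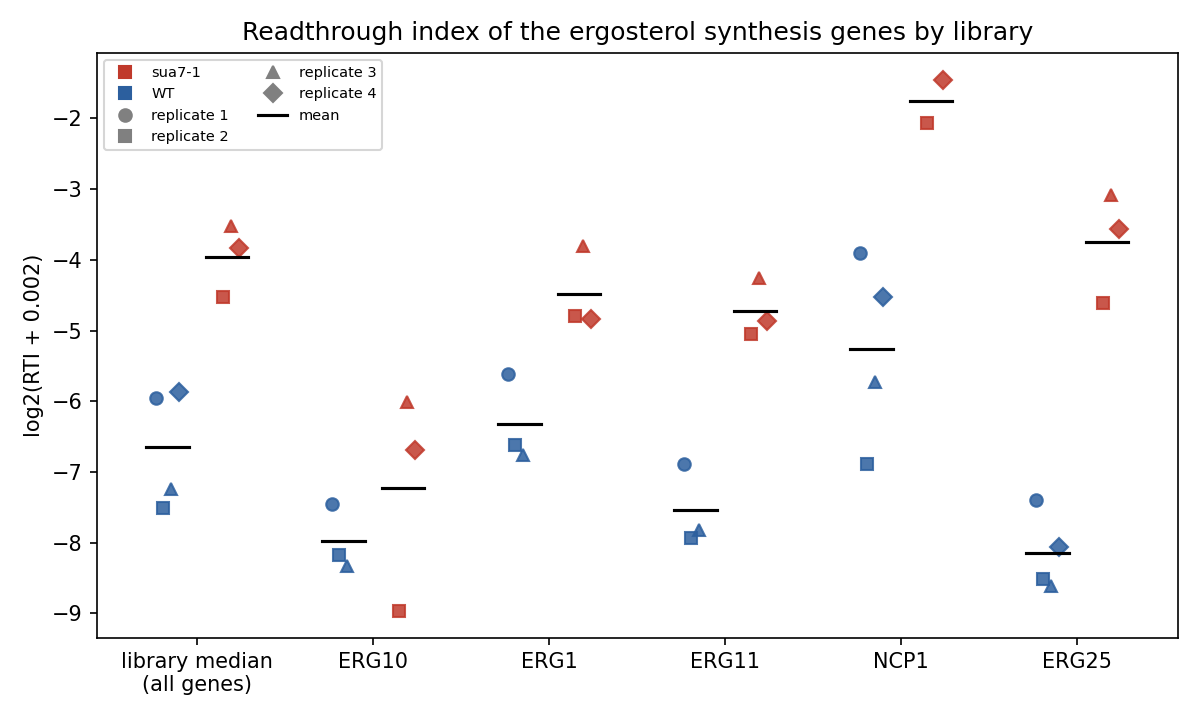
RTI of each member and the median RTI of all genes, as log2(RTI + 0.002), in each WT (blue) and sua7-1 (red) library, with the shape giving the replicate number and the black line the mean of the points. ERG1, ERG11, NCP1 and ERG25 show no overlap between strains, and ERG10 overlaps because it is listed at 0 in sua7-1 replicate 2.

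ERG25, the C-4 sterol oxidase, had the largest log2 fold change at the pseudocount of 0.002. This order depended on the scale, since NCP1 led with a pseudocount of 0.01 (3.07 against 2.83 for ERG25) and in the plain difference of mean RTI (0.268 against 0.0776). In the mutant its RTI was 0.0389 (replicate 2), 0.116 (replicate 3) and 0.0826 (replicate 4). In WT it was 0.00392 (replicate 1), 0.000735 (replicate 2), 0.000548 (replicate 3) and 0.00174 (replicate 4). The lowest mutant library was 9.93 times the highest WT library, and WT replicate 1 was the highest of its strain. The means were 0.0793 ± 0.0389 (SD, n = 3) and 0.00173 ± 0.00155 (SD, n = 4). The log2 fold change was 4.40 (standard error 0.52, limma adjusted p = 0.000111), the 14th largest of 337 genes, and the two-sided exact permutation test of the mean RTI gave p = 0.029, the lowest possible. Without WT replicate 4 this p was 0.1, again the lowest possible, and the log2 fold change was 4.43. In WT the reads downstream thus came to 0.0548% to 0.392% of those upstream, and in the mutant to 3.89% to 11.6%. The values of WT replicates 2, 3 and 4 lay below the pseudocount of 0.002, so the size of the change depends on it. It was 5.26 with a pseudocount of 0.0005 and 2.83 with 0.01.

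NCP1, the P450 reductase, had the highest RTI of the members in every mutant library with a value for it. In the mutant it was listed at 0.237 (replicate 2) and 0.363 (replicate 4). In WT it was listed at 0.0645 (replicate 1), 0.00649 (replicate 2), 0.0168 (replicate 3) and 0.0413 (replicate 4). The WT libraries spread widely, with replicates 1 and 4 high and replicate 2 low, yet the lower mutant value was still 3.67 times the highest of them. The means were 0.300 ± 0.0895 (SD, n = 2) and 0.0323 ± 0.0260 (SD, n = 4), which gave a log2 fold change of 3.50 (standard error 0.77, limma adjusted p = 0.00186). With 2 libraries against 4 the two-sided exact permutation test gave p = 0.067, the lowest possible.

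ERG11, the demethylase that Ncp1 serves, started lower and ended lower. Its mutant values were 0.0282 (replicate 2), 0.0503 (replicate 3) and 0.0322 (replicate 4), and its WT values were 0.00643 (replicate 1), 0.00211 (replicate 2) and 0.00244 (replicate 3). The strains did not overlap, and replicate 3 of the mutant and replicate 1 of WT stood above the others of their strain. From 0.00366 ± 0.00241 (SD, n = 3) in WT the mean went to 0.0369 ± 0.0118 (SD, n = 3), for a log2 fold change of 2.82 (standard error 0.52, limma adjusted p = 0.000742), or 1.76 with a pseudocount of 0.01. The two-sided exact permutation test gave p = 0.1, below which 3 against 3 libraries cannot go.

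ERG1, for squalene epoxidase, had the most downstream signal of the reverse-strand members in WT and the smallest log2 fold change of the members that rose. In the plain difference of mean RTI it was close to ERG11, at 0.0341 against 0.0332. Its mutant values were 0.0340 (replicate 2), 0.0693 (replicate 3) and 0.0331 (replicate 4), and its WT values were 0.0185 (replicate 1), 0.00820 (replicate 2) and 0.00724 (replicate 3). The gap between the strains was narrow, with the lowest mutant library at 1.79 times the highest WT library. The means were 0.0454 ± 0.0206 and 0.0113 ± 0.00624 (SD, n = 3 each). The log2 fold change was 1.85 (standard error 0.55, limma adjusted p = 0.00926), and the two-sided exact permutation test gave p = 0.1, the lowest possible.

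ERG10, for the thiolase of the first step, was listed in the mutant at 0 (replicate 2), 0.0135 (replicate 3) and 0.00769 (replicate 4), and in WT at 0.00369 (replicate 1), 0.00148 (replicate 2) and 0.00112 (replicate 3). Replicates 3 and 4 of the mutant lay above every WT library, while replicate 2 lay below them all. No mean of the mutant is printed because a listed 0 can be a failed estimate, and other genes were also listed at 0 in each library. The 0 was kept in the tests and in the mean lines of the figures, except where zeros were taken as missing. The log2 fold change was 0.76 (standard error 0.72, limma adjusted p = 0.343), and the two-sided exact permutation test gave p = 0.40. The value depended on that library. Without sua7-1 replicate 2, as with zeros taken as missing, the log2 fold change was 1.63 and ERG10 passed the test (limma adjusted p = 0.0206 and 0.0218), while over all alternatives its adjusted p ranged from 0.0206 to 0.861. ERG10 is also the only member with a gene on its own strand that starts within 500 nt of its stop codon. Such genes, 28 of the 331 with a position, had a median log2 fold change of 1.47, against 2.56 in the other 303, and the part of the neighbour in these values was not tested. The RTI window is counted from the mRNA 3′ end, not from the stop codon. Since the 3′ end lies after the stop codon, the window of ERG10 takes in part of SMA1 by the R64 annotation. SMA1 begins 372 nt after the stop codon of ERG10. Whether the window of ERG1 reaches CBP4, 527 nt after the stop codon of ERG1, is not known without the mRNA 3′ ends.

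**Figure D3:**
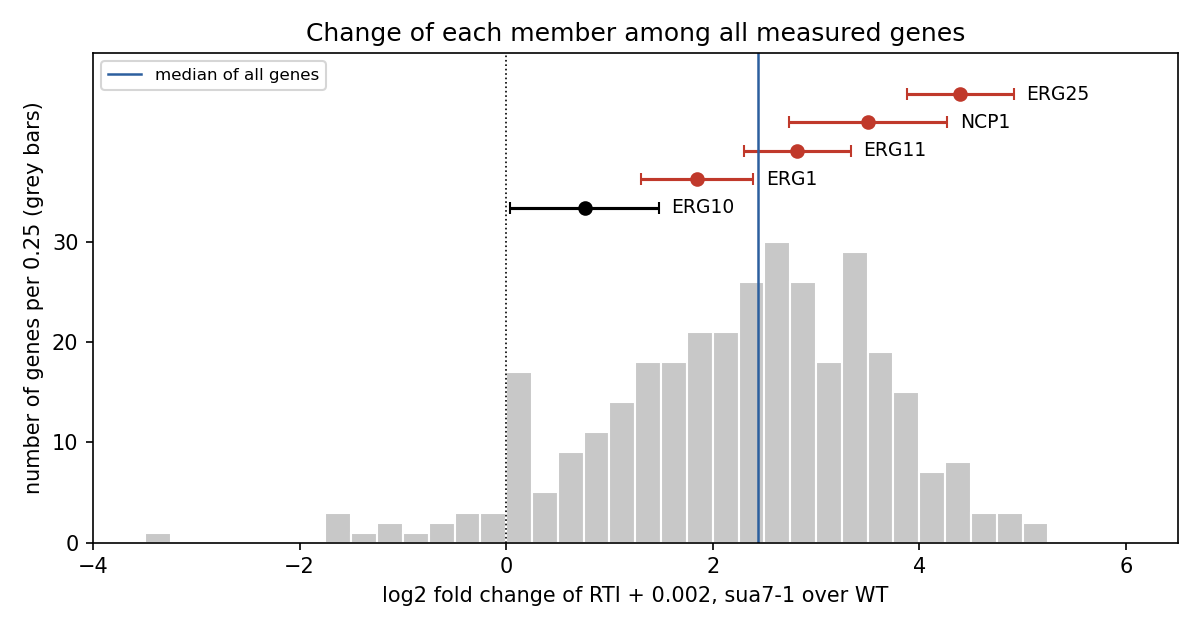
Histogram of the log2 fold change of RTI + 0.002 (sua7-1 over WT) over the 337 genes except FPR1, in bins of 0.25, with the 5 members above it as points with bars of 1 standard error, red where the gene passed the test and black for ERG10. FPR1, at 7.89, lies beyond the end of the axis and is not drawn. The members run from 0.76 to 4.40, on both sides of the median of all genes at 2.44 (blue line).

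The order of the members was not the same in both strains. In sua7-1 replicates 2 and 4 it ran NCP1, ERG25, ERG1, ERG11, ERG10 from the highest RTI to the lowest, and in replicate 3, which has no value for NCP1, the other members kept this order. Over the mutant libraries ERG25 and ERG1 overlapped, as did ERG1 and ERG11, while NCP1 lay above ERG25 and ERG11 above ERG10 in all values. In WT, NCP1 and ERG1 held the highest values and ERG10 and ERG25 the lowest, with ERG25 below ERG10 in replicates 2 and 3 and just above it in replicate 1. The WT values of NCP1 and ERG1 overlapped, as did those of ERG11 and ERG10 and those of ERG10 and ERG25. ERG1 lay above ERG11 in all WT values.

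Whether members changed by different amounts was tested inside each library, by the difference in log2(RTI + 0.002) between a pair of them, so that a shift shared by a whole library cancels in part. Of the 10 pairs, ERG25 against ERG1 went from 1.85 lower for ERG25 in WT to 0.73 higher in the mutant. This is a change of -2.58 for ERG1 relative to ERG25 (standard error 0.31), with no overlap between strains. ERG11 changed by -1.61 (standard error 0.28) relative to ERG25, and ERG10 by -3.67 (standard error 0.46). ERG1 and ERG11, both on the reverse strand and close in the mutant, moved apart by -0.97 (standard error 0.14) for ERG1 relative to ERG11, from 1.22 above it in WT to 0.25 above it in the mutant. For each of these 4 pairs the two-sided exact permutation test gave p = 0.1, the lowest possible. This p was 0.12 after Benjamini-Hochberg adjustment over the 10 pairs. The same p values, with no overlap between strains, were found for ERG10 relative to ERG1 (-1.09), ERG11 (-2.06) and NCP1 (-3.59). They were also found for ERG1 relative to NCP1 (-2.24). NCP1 and ERG25 changed by amounts that differed by -0.56 (standard error 0.68), and the strains overlapped (exact permutation test, p = 0.47, adjusted p = 0.47). For ERG11 against NCP1 the difference was -1.16 (standard error 0.74, exact permutation test, p = 0.20, adjusted p = 0.22). These sizes depended on the pseudocount. At 0.01 they were -1.48 for ERG1, -1.07 for ERG11 and -2.42 for ERG10 relative to ERG25. For ERG1 relative to ERG11 the value was -0.41, and for NCP1 relative to ERG25 it was 0.55, a change of sign. ERG10 had -0.94, -1.35 and -3.10 relative to ERG1, ERG11 and NCP1. Relative to NCP1, ERG1 had -2.17 and ERG11 -1.67. No pair could reach an adjusted p under 0.05 with these numbers of libraries.

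The place of each member among the genes of its own library was compared as well, which needs no unit. ERG25 stood above 7.89% to 22.5% of genes in the WT libraries and above 48.4% to 59.1% in the mutant libraries, moving from near the bottom to the middle (two-sided exact permutation test, p = 0.029, the lowest possible). NCP1 stood above 62.0% to 81.8% of genes in WT and above 91.1% and 92.6% in the mutant (two-sided exact permutation test, p = 0.13). ERG11 had overlapping places, with 29.8% to 38.6% in WT and 31.5% to 43.3% in the mutant (two-sided exact permutation test, p = 0.60). ERG1 had a lower place in the mutant while its RTI rose. It stood above 58.2% to 65.0% of genes in WT and above 32.3% to 46.8% in the mutant, with no overlap (two-sided exact permutation test, p = 0.1, the lowest possible). ERG10 went from 20.5% to 31.4% in WT to 0% to 12.6% in the mutant, also with no overlap (two-sided exact permutation test, p = 0.1, the lowest possible). The 0% is that of sua7-1 replicate 2, where its RTI is listed at 0, and replicates 3 and 4 stood at 12.6% and 11.0%. In WT replicate 4 the share is over 38 genes only, and without it the lowest p possible for ERG25 is 0.1.

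**Figure D4:**
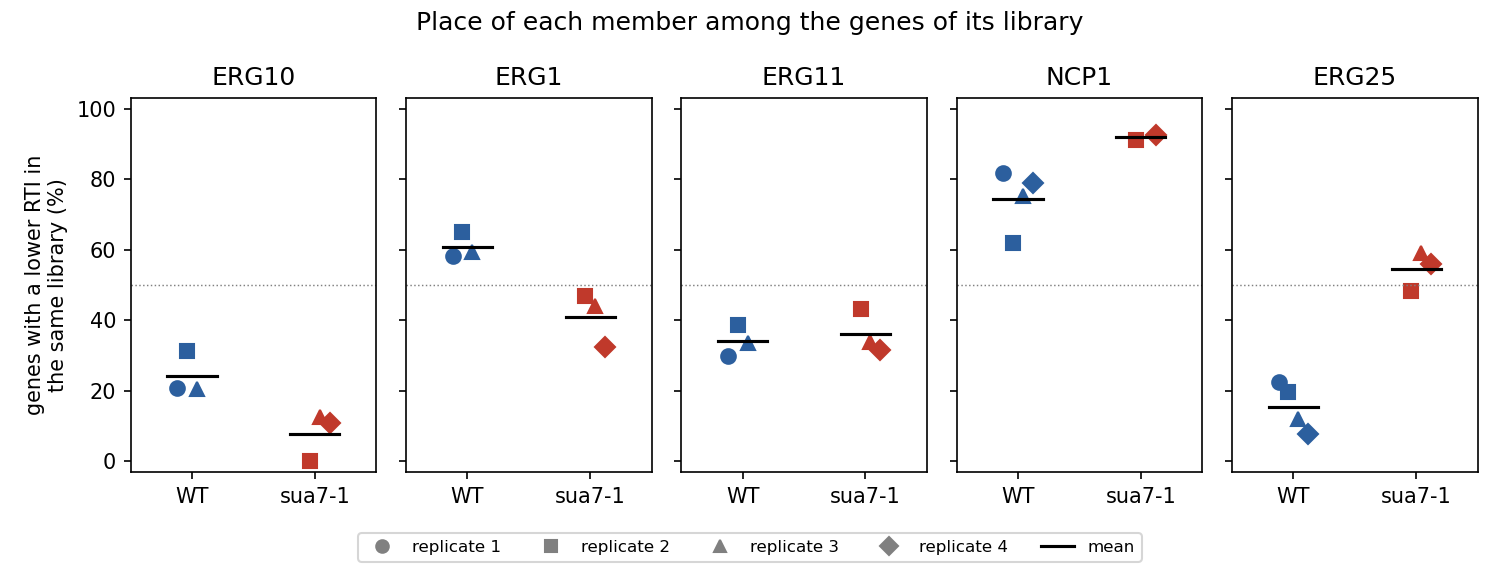
Share of genes in the same library with a lower RTI than the member, in percent, for each WT (blue) and sua7-1 (red) library, with the shape giving the replicate number, the black line the mean and the dotted line 50%. ERG25 lay at 22.5% or less in WT and at 48.4% or more in the mutant, NCP1 was higher in the mutant, ERG11 lay between 29.8% and 43.3% in both, and ERG1 and ERG10 were lower in the mutant.

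When the RTI was divided by the library median, so that a gene is read relative to the others, the median change over all genes (log2) went from 2.44 to -0.20, and 6.53% of genes rose and 15.4% fell. On this scale ERG25 alone of the members passed the test, with a log2 fold change of 2.40 (standard error 0.33, limma adjusted p = 0.00481). It remained called with WT replicate 4, whose median covers 38 genes, left out (2.29, limma adjusted p = 0.00491), a setting added once the data had been seen. Relative to the median, the RTI of ERG25 was 0.116 to 0.276 times the library median in WT and 0.940 to 1.37 times in the mutant. NCP1 had a log2 fold change of 0.85 (limma adjusted p = 0.177) and ERG11 one of 0.12 (limma adjusted p = 0.782). ERG1 and ERG10 turned negative, at -1.22 (limma adjusted p = 0.0523) and -1.46 (limma adjusted p = 0.0858). ERG1 was 1.30 to 2.35 times the library median in WT and 0.487 to 0.821 times in the mutant.

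**Figure D5:**
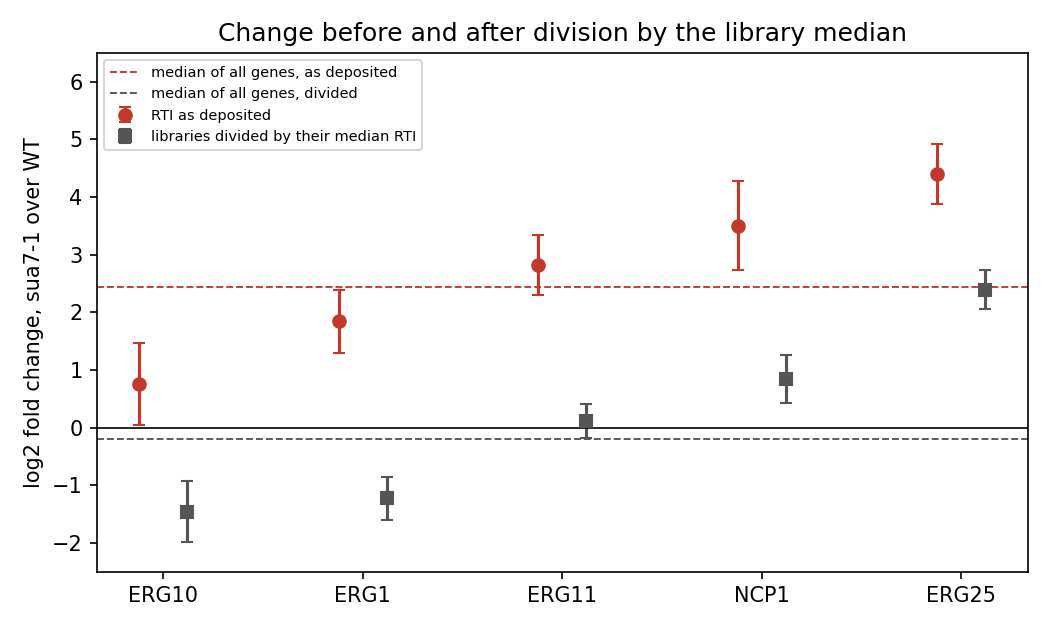
Log2 fold change (sua7-1 over WT) of each member for the RTI as deposited (red) and after division by the library median (grey), with bars of 1 standard error and dashed lines at the median of all genes on each scale, 2.44 and -0.20. Divided by the median, ERG25 went from 4.40 to 2.40 and was still called, ERG11 lay near 0, and ERG1 and ERG10 lay below it.

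The libraries of a strain moved together over the members. In WT, replicate 1 had the highest RTI of all 5 members, and in the mutant, replicate 3 had the highest RTI of the 4 members listed there. The same libraries stood high over all genes, with a median RTI of 0.0142 in WT replicate 1, against 0.00349 and 0.00459 in replicates 2 and 3 and 0.0150 over the 38 genes of replicate 4, and of 0.0850 in sua7-1 replicate 3.

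The other steps of the pathway were sparsely covered. Of 27 listed genes for sterol synthesis and its electron carriers, only the 5 members are in the table, and of 11 genes for its regulators and for sterol esterification there is none. Genes of other lipid pathways serve as the nearest comparison. Of 34 listed, 5 were measured, of which 2 rose, none fell and 3 were not called, with a median log2 fold change of 1.48, where 75.1% of all genes rose and their median was 2.44. Those that rose were ELO3, a fatty acid elongase with a log2 fold change of 3.39 from 2 mutant libraries, and TSC13, the enoyl reductase of the same elongation cycle, with 2.93. OLE1, the fatty acid desaturase, had mutant values of 0.499 (replicate 2), 0.911 (replicate 3) and 0.622 (replicate 4) and WT values of 0.785 (replicate 1), 0.0850 (replicate 2) and 0.189 (replicate 3), so that its strains overlapped. Its RTI was above that of every member in each of these libraries. ELO2, another elongase, and FAA4, an acyl-CoA synthetase, had log2 fold changes of 0.93 and 1.26 and did not pass the test. After division by the library median, OLE1 fell (-1.84, limma adjusted p = 0.0149) and the others of this list were not called. ELO3 had 2.45 on that scale (limma adjusted p = 0.0847).

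Since Erg1, Erg11, Erg25 and Ncp1 are proteins of the endoplasmic reticulum, genes for other proteins of this compartment were listed too. Of 23, 8 were measured, of which 6 rose and none fell, with a median log2 fold change of 2.69. This share is near the 75.1% of all genes that rose (median of all genes 2.44). SSH1, a translocon subunit, had a change of 4.88, above that of ERG25, and SEC61 and SBH1, subunits of translocons, had 3.05 and 3.52. OST1, a subunit of oligosaccharyltransferase, had 3.05, STT3, its catalytic subunit, 1.27, and RTN1, a reticulon, 2.33. PMT2, a protein mannosyltransferase, and WBP1, also of oligosaccharyltransferase, had 0.97 and 1.49 and did not pass. After division by the library median, SSH1 was still called with a rise (1.84, limma adjusted p = 0.00919), as ERG25 was. PMT2 fell on that scale (-2.31, limma adjusted p = 0.0284), and the others of this list were not called.

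The genes most like each member were found by the root mean square difference in log2(RTI + 0.002) over the libraries that list the member. Nearest to ERG10 were ERV14 (0.37), TPI1 (0.53) and RPL25 (0.60), against a median of 2.51 over 285 genes. Nearest to ERG1 were YBR121C-A (0.35), CDC60 (0.35) and YOR248W (0.38), and nearest to ERG11 were PMA1 (0.27), RPS1B (0.31) and SSB1 (0.31), each over 6 libraries and 285 genes with medians of 1.51 and 1.52. For NCP1, with 6 libraries and 33 genes that share them, these were OYE2 (0.47), SED1 (0.61) and HAC1 (0.62), against a median of 1.92. For ERG25, with 7 libraries and 32 genes, they were NOP10 (0.65), RPS20 (0.66) and PRY2 (0.70), against a median of 1.88. NCP1 and ERG25 are listed in WT replicate 4, so their nearest genes could come only from its 38 genes, 37 of them on the forward strand.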

How the data were processed

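Data were 7 GRO-seq libraries (3 sua7-1, 4 WT). Per the paper's methods, the authors trimmed adapters with cutadapt, aligned reads to S288C (R64-3-1; aligner not given in the sources used here), took mRNA 3′ ends for YPD, and kept mRNAs of at least 500 nt with at least 1 read per nucleotide and no same-strand gene within 500 nt. The value the authors deposited is a ratio, the RTI, per gene and library. Library size cancels in it and read depth is unknown, so no count test was run. All 337 genes meet the authors' minimum of 5 listed values, 2 of them per strain. The deposited table's means, log2 ratio and p-values per gene are the authors' own comparison and were not used. Its second part repeats 166 rows of these genes, 3 members among them, and was left out. No column of values lacked a sample.

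Symbols, positions and sequences came from the RefSeq copy of R64, in which 331 genes matched by systematic name; its annotation release may differ from the authors'. Distances start at the stop codon because the authors' mRNA 3′ ends were not used here. Genes were tested with limma 3.58.1 (R 4.3.3) on log2(RTI + 0.002), strain as the only factor, Benjamini-Hochberg over 337 genes, and checked on simulated data. This scale understates changes of genes near 0.002. The study's methods used a one-sided test on the RTI per gene, which was run in limma as an alternative. Single values were compared by exact permutation of libraries (Python 3.11.15, numpy 2.4.6). The members, gene lists and tests were chosen with earlier results of these data known. Named genes were the members, the measured genes of the lists, the 3 nearest genes of each member and the next downstream gene on either strand. Alternatives were other pseudocounts (0.0005, 0.01), filters on genes, limma's robust and trend options, missing values in place of zeros, division by the library median, each library left out in turn, and the replicate number as a block. Added after the data were seen were fits without genes that have a same-strand gene within 500 nt, by DNA strand, and divided by the median without WT replicate 4.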

Additional observations from a re-analysis of the deposited data

Results flagged for a closer look

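WT replicate 4 stood apart from the other WT libraries in the number of genes with an RTI. It listed 38 genes, against 325, 334 and 336 in WT replicates 1, 2 and 3, a gap of 0.963 of the whole range, above Dixon's 95% critical value for 4 libraries. Chance alone passes such a limit now and then, in 5% of groups. Of the members, only ERG25 and NCP1 have a value in this library, and their WT values and the WT library medians held none that passed the limit.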

How the results depend on the processing

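ERG1, ERG11, NCP1 and ERG25 were called with a rise in all 18 alternatives that left the libraries undivided, with adjusted p from limma up to 0.0485, 0.0123, 0.00990 and 0.0120. ERG10 was called in 2 of 16, without sua7-1 replicate 2 and with zeros as missing (1.63 in both), and had no value where a filter removed it. Division by the library median turned ERG10 (-1.46) and ERG1 (-1.22) negative and ended the calls of ERG11 (0.12) and NCP1 (0.85), with 22 genes rising and 52 falling; leaving out the fourth WT library as well gave -1.50, -1.23, 0.12 and 0.80, with 21 and 55. By construction this removes the shift of the whole library. The differences in mean RTI over the library median were -0.219 for ERG10 and -1.04 for ERG1. The 3 genes that fell became 5 with a pseudocount of 0.01, 6 with limma's trend and 5 with each DNA strand fitted separately; the cause was not tested. With a pseudocount of 0.01 the difference between NCP1 and ERG25 was 0.55 in place of -0.56, and the log2 fold changes were 0.42 (ERG10), 1.36 (ERG1), 1.76 (ERG11), 3.07 (NCP1) and 2.83 (ERG25).

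With 1 library left out, the log2 fold changes ran from 0.15 to 1.63 for ERG10, 1.51 to 2.21 for ERG1, 2.58 to 3.15 for ERG11, 2.96 to 3.96 for NCP1 and 4.06 to 4.83 for ERG25, with 213 to 277 genes rising and 2 to 4 falling. Without sua7-1 replicate 2 or 4, NCP1 has 1 mutant value, assumed to vary like the others. The difference in mean RTI ran from 0.0590 to 0.0978 for ERG25, and the difference in library medians from 0.0454 to 0.0672, with a p from the exact permutation test of 0.067 or 0.1, since fewer libraries can go no lower.

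No pairing of the libraries by replicate number was seen, in a check that could not exclude it. Deviations from the strain mean correlated by 0.13, -0.02 and -0.03 across genes between libraries numbered 2, 3 and 4, the last over 38 genes only. Between libraries with different numbers the correlations ran from -0.20 to 0.22. With the replicate block, 261 genes rose and 4 fell, and the members had 0.75 (ERG10), 2.38 (ERG1), 3.22 (ERG11), 3.95 (NCP1) and 4.65 (ERG25), with no call of a member changed. The block leaves few values from which to estimate the spread of a gene, so the unchanged calls are weak support. Read depth is unknown and limits all ratios, most of all those near 0.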
